A study of Mus musculus with 10 samples.

Results

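Neurog1, Neurod1, Neurod4, Isl1, Pou4f1, Nhlh1, Nhlh2 and Insm1 encode transcription factors of neurogenesis in the cochleovestibular ganglion, which holds the sensory neurons of hearing and balance. These 8 genes, of 19938 genes measured, were chosen by name from the platform annotation, and each was read by 1 probe set. The arrays held RNA of periotic tissue, that is, the otic vesicle, the epithelial precursor of the inner ear, with its surrounding mesenchyme. All embryos were at embryonic day 12.5, the tissue of both ears was pooled, and each embryo had its own Affymetrix Mouse Gene ST 1.0 array. The 5 mutants were T-Cre conditional knockouts of Tbx1, which encodes a T-box transcription factor. T-Cre drives recombination in cells of the forming mesoderm. The 5 control embryos were conditional heterozygotes with the same T-Cre, so both groups carried the recombinase. The otic epithelium, from which the ganglion neurons arise, is ectoderm and not mesoderm. The study asks how loss of Tbx1 from the mesoderm changes gene expression in the developing ear.

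Inner ear neurons are born in the otic epithelium. Neuroblasts that express Neurog1 switch on Neurod1 and other basic helix-loop-helix factors, leave the epithelium and settle beside the otic vesicle as the ganglion. There they express Isl1 and Pou4f1 and extend axons towards the hindbrain and the sensory patches. The basic helix-loop-helix factors bind DNA at E-boxes, short motifs of the form CANNTG. None of the 8 genes belongs to the ganglion alone: hindbrain neurons and other cranial ganglia also express several of them.

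Values are log2 signals, so a difference of 1 is a doubling of signal. In all 10 arrays all 8 genes read above background. Background was taken from 3 Y-linked genes in the 7 female embryos, which read at most 4.36, while the lowest value of any of the 8 genes was 4.83. By their mean over the arrays 17181 of 19938 genes lay above 4.36, so passing this cut does not set the 8 genes apart. Signals of different probe sets are not on 1 scale, so no order of level among the genes is given. Tbx1 itself had a mutant mean of 7.83 ± 0.36 and a control mean of 8.71 ± 0.31 (SD, n = 5 each), 54.2% of the control signal. Its log2 difference was -0.88 (exact permutation p 0.0159; limma adjusted p 0.452), and mutant 1, at 8.40, lay above control 4, at 8.23. The position of its probes against the deleted exons was not analysed here. Fos and other immediate early genes set the arrays numbered 1 to 3 apart from those numbered 4 and 5 in both groups. For Fos the lowest value in the first set was 8.82 and the highest in the second was 5.91. Of 7 immediate early genes 5 were lower in the mutants, with a median of -0.11, and those of smallest p were Junb (-0.20) and Ier2 (-0.19). The labels do not say what this numbering shares, so differences are also given within each set.

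All 8 genes had a higher mean in the mutants, and 0 of 8 passed the limma test at an adjusted p under 0.05. Of all genes, 0.01% passed in either direction. At an unadjusted p under 0.05 there were 4 of 8, namely Neurod4, Pou4f1, Nhlh1 and Neurod1, all higher in the mutants, where 4.7% of all genes reached that mark in the same direction and 7.82% in either. The median log2 difference of the 8 genes was 0.39, and that of all genes was -0.0021. Of all genes 49.1% had a difference above 0. The 8 genes varied together within the groups (median Pearson's r of 0.734 over their pairs), so they are not 8 separate observations. They were also chosen with earlier results of these data known. The groups overlapped for each of the 8 genes, while 1.27% of all genes lay higher in every mutant than in every control, and 1.83% did not overlap in either direction. Any difference in these pooled tissues could lie in neuron number, RNA per neuron or tissue share, which cannot be told apart.

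**Figure D1:**
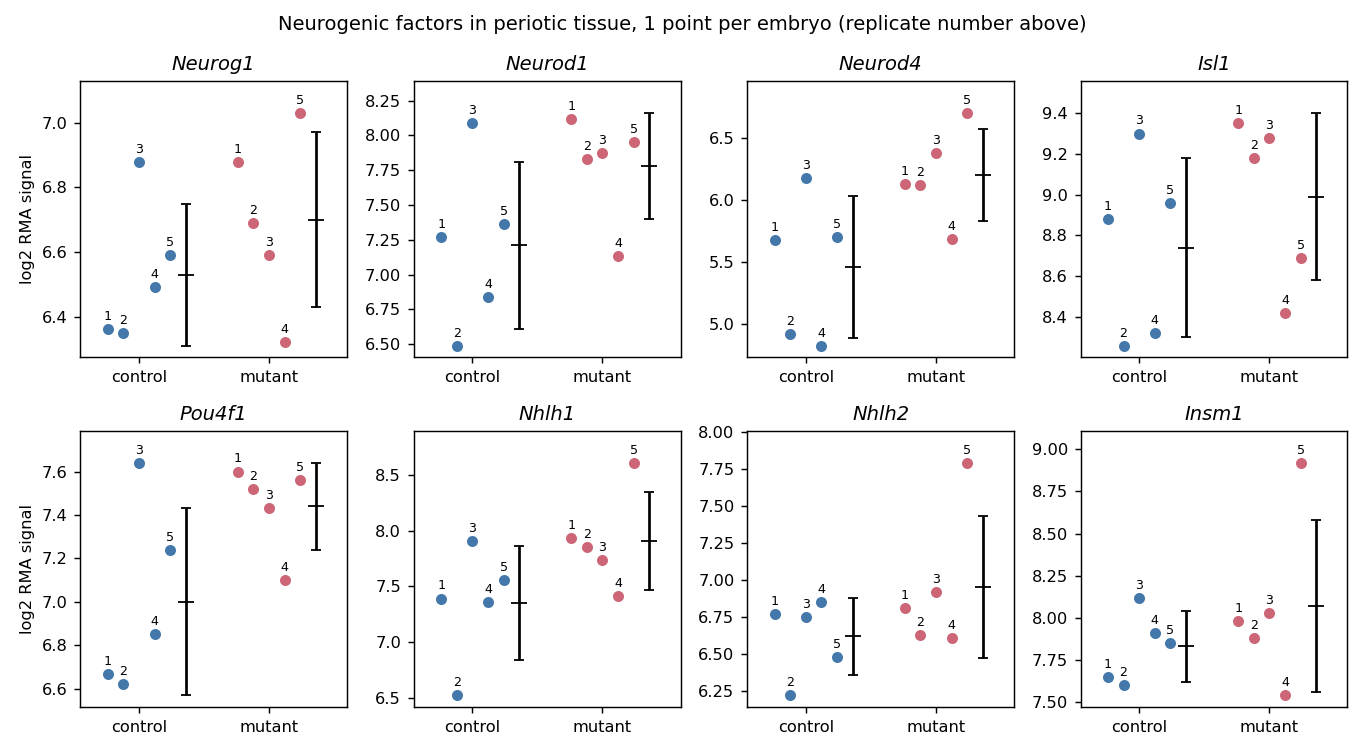
Each panel plots the log2 RMA signal of 1 gene (vertical axis, a separate range for each gene) in the 5 control and 5 mutant embryos, with the replicate number above each point and the mean and SD of the group to its right. Mutant 4 was the lowest mutant for all 8 genes, control 3 was the highest control for 7 and control 2 the lowest control for 7.

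Neurog1, the factor that commits otic epithelial cells to the neuronal lineage, differed little. The mutants read 6.88, 6.69, 6.59, 6.32 and 7.03 for embryos 1 to 5, and the controls 6.36, 6.35, 6.88, 6.49 and 6.59. The lowest of all arrays was mutant 4 and the highest mutant 5. The log2 difference was 0.17 ± 0.14 (SE), with a 95% interval of -0.12 to 0.46, an exact permutation p of 0.318 and a limma adjusted p of 0.752. Without mutant 5 the difference was 0.09. The 250 bases before the RefSeq start of Neurog1 (GRCm38.p6, chr13:56252181-56252430, minus strand) are shown because this gene starts the cascade. The capitals mark an octamer, ATTTGCAT read on the other strand, a DNA motif known from POU domain factors. The octamer is in 1.6% of 32851 promoter windows of this length, and a match is no evidence of binding.
Neurog1: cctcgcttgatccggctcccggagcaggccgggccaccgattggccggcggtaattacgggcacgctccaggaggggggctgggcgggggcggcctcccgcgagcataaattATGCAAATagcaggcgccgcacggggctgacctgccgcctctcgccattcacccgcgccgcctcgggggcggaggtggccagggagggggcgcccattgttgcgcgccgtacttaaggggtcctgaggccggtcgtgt

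Neurod1 acts below Neurog1 and is needed for neuroblasts to leave the epithelium and survive. Its signal was 8.12, 7.83, 7.87, 7.13 and 7.95 in mutants 1 to 5, and 7.27, 6.49, 8.09, 6.84 and 7.36 in controls 1 to 5. Control 3 lay above 4 of the 5 mutants, and mutant 4 lay below 3 controls. The mutant mean was 7.78 ± 0.38 and the control mean 7.21 ± 0.60 (SD, n = 5 each). The difference of Neurod1 was 0.57 ± 0.26 (SE; interval 0.01 to 1.12), with an exact permutation p of 0.119 and a limma adjusted p of 0.602.

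Neurod4, a relative of Neurod1 expressed in newly born neurons, had the largest difference of the 8 genes. Mutants 1 to 5 read 6.13, 6.12, 6.38, 5.69 and 6.70, and controls 1 to 5 read 5.68, 4.92, 6.18, 4.83 and 5.70. All 5 mutants lay above the control mean of 5.46 ± 0.57 (SD, n = 5), and in each of the 5 pairs of equal replicate number the mutant was higher. Control 3 was again high and lay above 3 mutants. The difference of 0.74 ± 0.25 (SE; interval 0.21 to 1.27) put the mutants at 167% of the control signal (interval 115 to 242%). Its exact permutation p was 0.0714, and its limma adjusted p of 0.569 was the lowest of the 8.

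Isl1 and Pou4f1 mark the differentiating sensory neuron. Isl1, a LIM-homeodomain factor also found in motor neurons and in the prosensory epithelium, read 9.35, 9.18, 9.28, 8.42 and 8.69 in mutants 1 to 5, and 8.88, 8.26, 9.30, 8.32 and 8.96 in controls 1 to 5. Its ranges coincided almost fully, and mutants 4 and 5 lay below 3 of the controls. The difference of Isl1 was 0.24 ± 0.22 (SE; interval -0.23 to 0.71), with an exact permutation p of 0.405 and a limma adjusted p of 0.783.

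Pou4f1, a POU-homeodomain factor of sensory ganglia, read 7.60, 7.52, 7.43, 7.10 and 7.56 in mutants 1 to 5 and 6.67, 6.62, 7.64, 6.85 and 7.24 in controls 1 to 5. All 5 mutants exceeded the control mean, and control 3 was the highest of the 10 arrays. The mutants spread less (SD 0.20) than the controls (SD 0.43). The Pou4f1 difference was 0.44 ± 0.18 (SE; interval 0.06 to 0.82), with an exact permutation p of 0.0873 and a limma adjusted p of 0.583. Without control 3 it was 0.60 (interval 0.30 to 0.90) and the limma adjusted p 0.638.

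The promoter windows of these sensory neuron factors each hold the E-box CAGCTG, marked in capitals, which is in 13.0% of all windows. The first is Isl1 (GRCm38.p6, chr13:116309689-116309938, minus strand), with the E-box beginning 103 bases before the start, and the second Pou4f1 (chr14:104468000-104468249, minus strand), with it 118 bases before.
Isl1: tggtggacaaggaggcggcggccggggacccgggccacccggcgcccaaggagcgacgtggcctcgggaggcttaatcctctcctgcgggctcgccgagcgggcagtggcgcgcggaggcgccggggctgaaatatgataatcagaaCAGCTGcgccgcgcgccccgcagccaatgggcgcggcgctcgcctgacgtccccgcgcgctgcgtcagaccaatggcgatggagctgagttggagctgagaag
Pou4f1: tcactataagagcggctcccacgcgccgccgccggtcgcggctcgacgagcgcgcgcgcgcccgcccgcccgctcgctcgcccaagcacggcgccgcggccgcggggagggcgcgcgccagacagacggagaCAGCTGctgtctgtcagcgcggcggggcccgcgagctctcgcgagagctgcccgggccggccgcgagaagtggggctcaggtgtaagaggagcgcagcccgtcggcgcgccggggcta

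Nhlh1 and Nhlh2 are closely related basic helix-loop-helix factors of young neurons. Nhlh1 read 7.93, 7.85, 7.74, 7.41 and 8.61 in mutants 1 to 5 and 7.39, 6.52, 7.91, 7.36 and 7.56 in controls 1 to 5. Mutant 5 was the highest array and control 2 the lowest, 4.25-fold apart, the widest span among the 8 genes. The difference was 0.56 ± 0.24 (SE; interval 0.03 to 1.08), with an exact permutation p of 0.0952 and a limma adjusted p of 0.602 for Nhlh1.

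For Nhlh2 the mutants read 6.81, 6.63, 6.92, 6.61 and 7.79 and the controls 6.77, 6.22, 6.75, 6.85 and 6.48. Mutant 5 stood 1.04 above the mean of the other mutants, of which 3 lay within the range of the controls and mutant 3 just above it. The difference was 0.34 ± 0.20 (SE; interval -0.10 to 0.77) with a limma adjusted p of 0.686 and an exact permutation p of 0.230. Without mutant 5 it was 0.13 (interval -0.14 to 0.40).

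The windows of Nhlh1 and Nhlh2 each hold 1 E-box CAGATG, in capitals, which is in 14.4% of all windows. The longest run of bases that the pair shares, ACAGATGTC, contains it and is in 0.195% of all windows. Any other pair of the 7 genes also shares a run, of 7 to 11 bases. The Nhlh1 window is chr1:172057597-172057846 on the minus strand of GRCm38.p6, and that of Nhlh2 is chr3:102009895-102010144 on the plus strand.
Nhlh1: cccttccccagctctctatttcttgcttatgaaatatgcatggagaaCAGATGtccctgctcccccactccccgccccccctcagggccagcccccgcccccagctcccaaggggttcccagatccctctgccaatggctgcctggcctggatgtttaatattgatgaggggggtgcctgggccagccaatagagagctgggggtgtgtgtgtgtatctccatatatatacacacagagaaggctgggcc
Nhlh2: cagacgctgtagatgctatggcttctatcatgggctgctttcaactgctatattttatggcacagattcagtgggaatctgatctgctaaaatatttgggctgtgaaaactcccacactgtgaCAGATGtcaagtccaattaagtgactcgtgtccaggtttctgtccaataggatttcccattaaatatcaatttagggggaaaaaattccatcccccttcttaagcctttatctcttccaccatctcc

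Over the family, 7 of the 8 genes matched the RefSeq promoter table, all but Insm1, and Neurod4 has more than 1 start there. Both strands were searched, and CAGATG and CAGCTG are also counted under CANNTG. At least 1 CANNTG was in the windows of Neurod1, Isl1, Pou4f1, Nhlh1 and Nhlh2, and in 66.2% of all windows. Neurog1 and Neurod4 had none within 250 bases. Of the other motifs searched, the homeodomain motif TAATTA was in the Neurog1 window (4.84% of all windows), CCAAT in those of Isl1, Neurog1, Nhlh1 and Nhlh2 (33.8%) and TATAAA in none of the 7 genes (12.4%). The windows of the 7 genes ranged in GC content from 42.0% for Nhlh2 to 78.0% for Pou4f1.

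Insm1, a zinc finger factor of neuronal progenitors and endocrine cells, was shaped by 1 embryo. Mutants 1 to 5 read 7.98, 7.88, 8.03, 7.54 and 8.92, and controls 1 to 5 read 7.65, 7.60, 8.12, 7.91 and 7.85. Mutant 4 was the lowest of all arrays and mutant 5 the highest, 1.07 above the mean of the other mutants. The difference of Insm1 was 0.25 ± 0.20 (SE; interval -0.19 to 0.68), with an exact permutation p of 0.421 and a limma adjusted p of 0.760. Without mutant 5 it was 0.03 (interval -0.23 to 0.30).

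**Figure D2:**
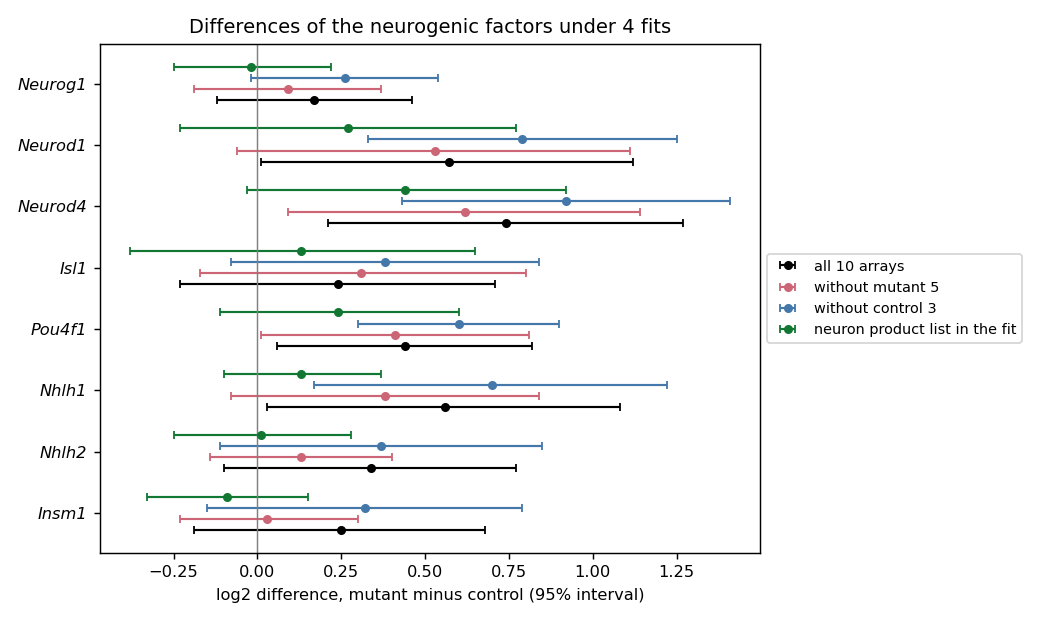
Points show the log2 difference of mutants minus controls (horizontal axis) for each gene with its 95% interval from limma, in 4 fits that are set apart by colour. With all 10 arrays the intervals of Neurod1, Neurod4, Pou4f1 and Nhlh1 lie above 0, and with the mean of 20 neuron products in the fit every interval includes 0.

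The differences depended in part on single embryos. Leaving out mutant 5 brought the differences of Neurog1, Nhlh2 and Insm1 to 0.09, 0.13 and 0.03 and that of Nhlh1 to 0.38, and left that of Neurod4 at 0.62 and that of Pou4f1 at 0.41. Leaving out control 3 gave 0.92 for Neurod4, 0.79 for Neurod1 and 0.70 for Nhlh1, and the limma adjusted p of these genes was then 0.638. Leaving out control 2, the lowest control for 7 genes, gave 0.39 for Neurod1, 0.35 for Nhlh1 and 0.12 for Isl1. The median difference of the 8 genes lay between 0.29 and 0.49 as each array was left out.

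Within the arrays numbered 1 to 3 all 8 genes were higher in the mutants, with a median difference of 0.50. The differences there were 0.66 for Neurod1, 0.61 for Neurod4, 0.56 for Nhlh1, 0.54 for Pou4f1 and 0.46 for Isl1. In the arrays numbered 4 and 5, with 2 embryos a group, 7 of 8 were higher and Isl1 was at -0.09 (interval -0.67 to 0.50). Neurod4 had 0.93 (interval -0.11 to 1.97) in that set. A limma interaction test of whether the difference varied between the sets gave unadjusted p-values from 0.155 for Isl1 to 0.979 for Nhlh1, and an adjusted p of 1.0 for each gene.

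Many, but not all, pairs of the 8 genes varied together between embryos of the same group. Each value was taken as its deviation from its group mean, and the 28 pairs of genes were compared over the 10 arrays by permutation within groups (100000 resamples), with Benjamini-Hochberg adjustment over the pairs. Pearson's r was above 0 for 27 pairs, with a median of 0.734, and 15 pairs had an adjusted p under 0.05. By Spearman's rho 13 pairs did. In 17 of the 28 pairs r was at least 0.7, against 3.31% of all pairs among 17181 genes above background, whose median r was 0.009. Without the 2 arrays farthest from the median of the first gene, r was above 0 in 25 pairs, with a median of 0.609. The number of pairs under 0.05 rested on single embryos: it was 1 without mutant 4, 1 without control 3, 2 without control 2 and 8 without control 5. It also rested on how the arrays were permuted. When the replicate numbers were moved as whole pairs (120 arrangements), 5 pairs had an adjusted p under 0.05. When the means of the array sets 1 to 3 and 4 to 5 were removed as well and values were permuted within group and set (144 arrangements), 0 pairs did and 9 had an unadjusted p under 0.05, while r was then above 0 in all 28 pairs with a median of 0.812.

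By r the closest pair was Nhlh2 with Insm1 (0.890), followed by Neurod1 with Pou4f1 (0.889), Isl1 (0.881) and Neurod4 (0.879), and by rho it was Neurog1 with Pou4f1 (0.927). Neurod1 and Isl1 had r = 0.881 (permutation p = 0.00274, adjusted 0.0228) and rho = 0.842 (p = 0.00655, adjusted 0.0246). For Neurod1 and Pou4f1, r was 0.889 (permutation p = 0.00569, adjusted 0.0228) and rho 0.903 (p = 0.00112, adjusted 0.0157). Without the 2 farthest arrays these pairs kept r = 0.826 and 0.725. Neurog1 and Pou4f1 had r = 0.858 (permutation p = 0.0002, adjusted 0.0056) and rho = 0.927 (p = 0.00015, adjusted 0.0042), and r = 0.843 without the 2 farthest. Each of these 3 pairs thus kept r above 0.7 in the 8 arrays left. Within the 6 arrays numbered 1 to 3, r was 0.989, 0.888 and 0.956 for them in this order. The other set holds 4 arrays, too few for a value.

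Over all 10 arrays Isl1 had its weakest relations with Nhlh2 and Insm1. With Nhlh2 its r was -0.014 (permutation p = 0.974, adjusted 0.974; rho = 0.188, p = 0.627, adjusted 0.627) and with Insm1 0.142 (permutation p = 0.754, adjusted 0.782; rho = 0.442, p = 0.229, adjusted 0.246). Without the 2 arrays farthest from the median of Isl1 these became -0.609 and -0.404. Within the 6 arrays numbered 1 to 3 neither was weak: r was 0.853 with Nhlh2 and 0.849 with Insm1, and r was above 0 for all 28 pairs, with a median of 0.85. Without mutant 5, in which Nhlh2 and Insm1 were high and Isl1 was not, r of Isl1 was 0.429 with Nhlh2 and 0.761 with Insm1 (9 arrays; adjusted p = 0.334 and 0.0579 by permutation). Nhlh2 and Insm1 themselves had r = 0.890 (permutation p = 0.0106, adjusted 0.0296), rho = 0.830 (p = 0.00796, adjusted 0.0246), r = 0.659 without the 2 farthest arrays and 0.595 without mutant 5. Over all pairs the median r without mutant 5 was 0.792, with 16 pairs under 0.05.

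**Figure D3:**
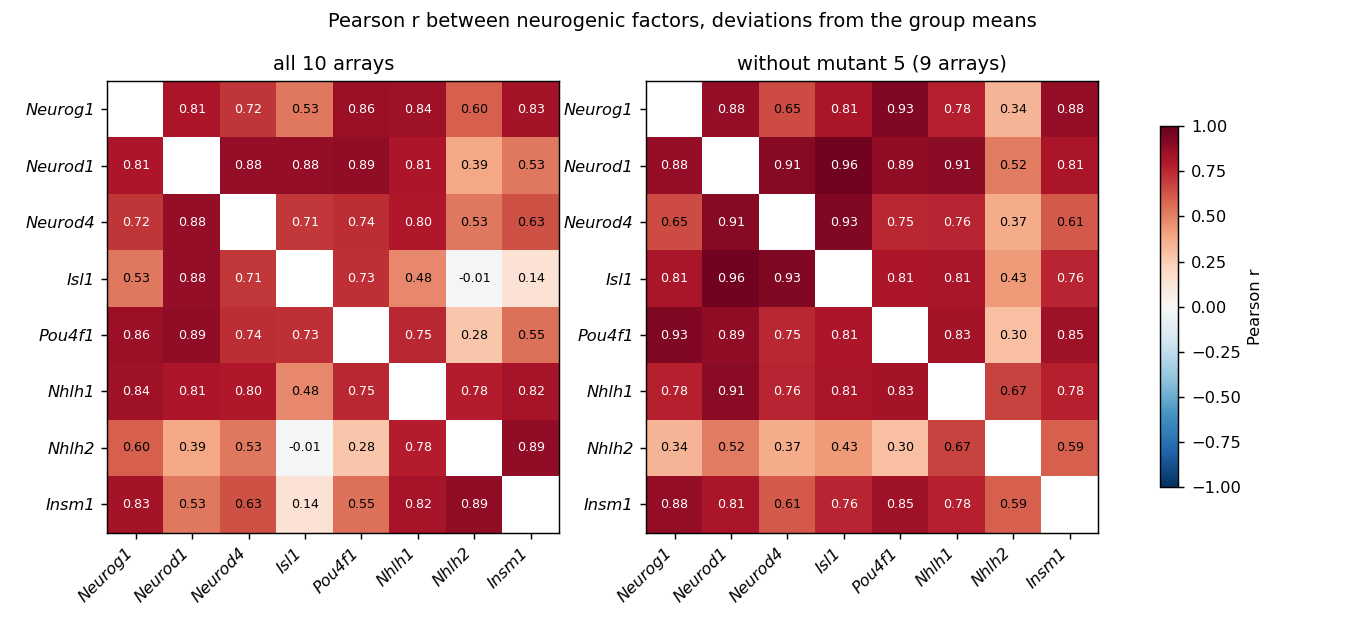
Both grids give Pearson's r for each pair of genes, computed on deviations from the group means, with red for positive values, over all 10 arrays on the left and over 9 arrays without mutant 5 on the right. Isl1 with Nhlh2 goes from -0.01 on the left to 0.43 on the right, and Nhlh2 keeps the palest row on the right.

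Mutant 5 divided the 8 genes. Against the mean of the other 4 mutants, Insm1 was higher by 1.07, Nhlh2 by 1.04, Nhlh1 by 0.88, Neurod4 by 0.62 and Neurog1 by 0.41. Neurod1 was higher by 0.21 and Pou4f1 by 0.15, and Isl1 was lower, at -0.37. Isl2, a LIM-homeodomain relative of Isl1, was at -0.49, and Pou4f3, a relative of Pou4f1 known from hair cells, at -0.39. Genes of neural progenitors and hindbrain were high in the same embryo: Sox2 by 1.36, the Notch ligand gene Dll3 by 1.47, Lhx1 by 2.08, Lhx5 by 2.23 and En2, a factor of the midbrain and anterior hindbrain, by 4.34. Otx2, a forebrain and midbrain factor also found in the ventral otic vesicle, was higher by 2.00. In control 4, against the mean of the other controls, En2 was higher by 2.22, Lhx1 by 1.26, Lhx5 by 1.24 and Otx2 by 0.96. There Neurod4 was at -0.79, Isl1 at -0.53, Neurod1 at -0.46, Pou4f1 at -0.19 and Neurog1 at -0.06. Nhlh2 was at 0.29, Insm1 at 0.10 and Nhlh1 at 0.02 in that embryo. These offsets were read after the values had been seen and were not tested.

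The hindbrain and neural tube list, 20 genes such as En2, Pax6, Lhx5 and Olig2, stands beside these results as a measure of other neural tissue. Its mean, set to the control mean, ranged from -0.13 to 0.83 in the mutants and from -0.20 to 0.30 in the controls. Mutant 5 had 0.83 and the other mutants at most 0.08. Of the list, 19 genes read above background in every array, En2 being the exception. In mutants 1 to 4 En2 read 4.74, 4.55, 4.17 and 4.43, near background, against 8.81 in mutant 5, and control 4 was the highest control at 7.05. By median the list differed by 0.05, with 12 of 20 genes higher and 0 past the limma threshold (2 at an unadjusted p under 0.05, Pax3 and Pax6, each with a difference of 0.70 and, without mutant 5, of 0.48 and 0.43). With its mean in the fit, the differences were 0.71 for Neurod4, 0.57 for Neurod1, 0.42 for Pou4f1 and 0.45 for Nhlh1. Those of Nhlh2 and Insm1 were 0.20 and 0.11, and 8 of 8 differences stayed above 0. The intervals of Neurod4 (0.16 to 1.25) and Pou4f1 (0.03 to 0.81) also stayed above 0. Those of Neurod1 (-0.0 to 1.14) and Nhlh1 (-0.01 to 0.91), which lay above 0 without the list, then included 0. The intervals of the remaining genes included 0 in both fits.

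Correlations of the 8 genes with the hindbrain list followed the same division, and none passed adjustment over the 16 relations tested with this and the neuron list. They were 0.818 for Nhlh2 (permutation p = 0.0633, adjusted 0.127; rho = 0.503, p = 0.140, adjusted 0.225) and 0.795 for Insm1 (permutation p = 0.0732, adjusted 0.130; rho = 0.648, p = 0.0536, adjusted 0.107). For Isl1 r was -0.444 (permutation p = 0.217, adjusted 0.315; rho = -0.212, p = 0.575, adjusted 0.575). Without the 2 arrays farthest from the list's median, Nhlh2 had r = 0.024 and Insm1 0.236, so both relations rest on those arrays. Without mutant 5 they were 0.260 and 0.137.

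The neuron product list holds 20 genes of differentiated neurons, such as the RNA-binding proteins Elavl3 and Elavl4, the tubulin Tubb3 and the neurofilaments Nefl and Nefm. In the mutants 19 of 20 were higher, with a median difference of 0.32 and 0 past the limma threshold (2 at an unadjusted p under 0.05). The 2 of smallest p were Elavl4 (0.56, interval 0.08 to 1.03, limma adjusted p 0.583) and Elavl3 (0.52, interval 0.01 to 1.04, limma adjusted p 0.609). The mean of the list ranged from -0.06 to 0.98 in the mutants and from -0.53 to 0.24 in the controls, with mutant 5 highest and control 2 lowest. In mutant 5 its genes did not rise alike. Ina read 11.76 there against at most 10.18 in the other mutants, and Syt1 9.49 against at most 7.79. Against the mean of the other mutants Nefl was at 0.24, Nefm at 0.02 and Prph at -0.32. The part of this embryo in the list mean was not tested. All 20 genes read above background in all arrays.

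With the mean of this list in the fit, the median difference of the 8 neurogenic genes went from 0.39 to 0.13, and 6 of 8 stayed above 0. Neurod4 had 0.44 (interval -0.03 to 0.92), Neurod1 0.27, Pou4f1 0.24, Nhlh1 0.13 and Isl1 0.13. Nhlh2 was at 0.01, Neurog1 at -0.02 and Insm1 at -0.09. Insm1 followed the list with r = 0.910 (permutation p = 0.00023, adjusted 0.00368; rho = 0.939, p = 0.00098, adjusted 0.0157), and Nhlh1 with r = 0.944 (permutation p = 0.00052, adjusted 0.00416; rho = 0.939, p = 0.00229, adjusted 0.0183). Without the 2 farthest arrays r was 0.948 for Insm1 and 0.871 for Nhlh1. The relations to both lists were permuted within groups only. Permutations restricted by array set or replicate number, which left fewer gene pairs under 0.05, were not run for them. For Isl1 r was 0.266 over all arrays (permutation p = 0.476, adjusted 0.586; rho = 0.455, p = 0.212, adjusted 0.308) and 0.683 without mutant 5.

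**Figure D4:**
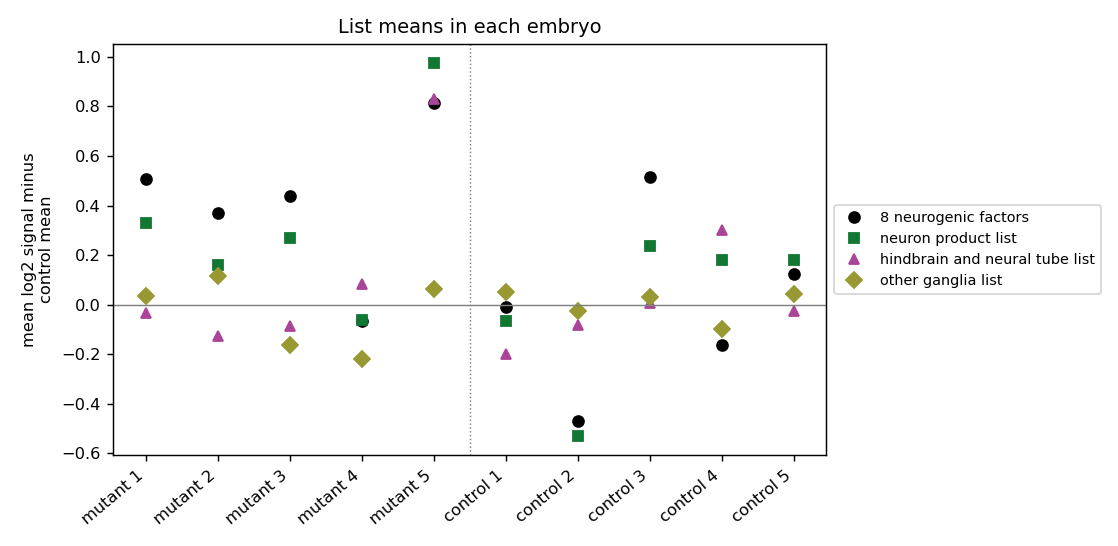
Each symbol is the mean log2 signal of a gene list in 1 embryo minus its control mean (vertical axis), with the 5 mutants left and the 5 controls right of the dotted line. In mutant 5 the neurogenic factors (0.81), the neuron products (0.98) and the hindbrain list (0.83) are all high, whereas in control 3 the neurogenic factors (0.52) are high and the hindbrain list is near 0.

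Genes of other ganglia and of glia were also read. For other cranial and autonomic ganglia, 7 of 10 listed symbols were measured. Of these 7 genes, 4 were higher and 3 lower in the mutants, with a median of 0.08. In this list 0 genes passed the limma threshold or an unadjusted p of 0.05. Its mean ranged from -0.22 to 0.12 in the mutants and from -0.10 to 0.05 in the controls. The 2 genes of smallest p were among the lower ones: Phox2a, a factor of visceral neurons (difference -0.17), and Dbh, an enzyme of noradrenaline synthesis (-0.29). Prrxl1, at 0.12, was the highest. Of neural crest and glial genes, 4 of 6 measured, 1 was higher and 3 were lower, with a median of -0.11, and their mean ranged from -0.05 to 0.13 against -0.17 to 0.18, where Fabp7, of radial and satellite glia, had 0.65 (interval 0.06 to 1.24, limma adjusted p 0.589) and Sox10 -0.13. All 7 genes of the first list and all 4 of the second read above background in every array. Their part in the differences above was not tested.

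The specification and Notch list had 7 of 13 measured genes higher and 6 lower, with a median of 0.04 and 0 past the limma threshold or under an unadjusted p of 0.05. Its 2 genes of smallest p were Sox2, a factor of neural and sensory progenitors, at 0.52 (interval -0.02 to 1.05), and Dll3 at 0.56 (interval -0.03 to 1.15). Both were largest in mutant 5, and without it their differences were 0.24 and 0.27. Partner proteins and inhibitors of basic helix-loop-helix factors, with LIM cofactors, had 5 of 10 higher and a median of 0.02. Tcf3, which encodes an E protein that dimerises with the neurogenic factors, was at -0.21 (interval -0.44 to 0.02), and Ldb2, a cofactor of LIM-homeodomain proteins, at 0.13.

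Other neuronal transcription factors had 12 of 14 measured genes higher, with a median of 0.16 and 0 past the limma threshold (2 at an unadjusted p under 0.05). Myt1, a zinc finger factor of new neurons, had 0.65 ± 0.21 (SE; limma adjusted p 0.569), and 0.45 without mutant 5. Its relative St18 had 0.54 (interval 0.02 to 1.07, limma adjusted p 0.602), and 0.28 without mutant 5. Family relatives of the 8 genes had 5 of 9 measured genes higher and a median of 0.04. Of these, Atoh7 was at -0.19 and Neurod6 read 6.95 in mutant 5, 6.21 in mutant 4 and 5.71 in control 4 against at most 4.59 elsewhere. Neurod6 was above background in 3 of 5 mutants and 2 of 5 controls, so its difference of 0.68 is taken against values at background.

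All 9 otic epithelial genes measured and all 7 genes of periotic mesenchyme read above background in every array. By mean 17181 of 19938 genes lay above that cut, so passing it says little on which tissues were present. Of the otic genes 6 of 9 were lower in the mutants, with a median of -0.08, and of the mesenchyme genes 6 of 7, with a median of -0.10. The mean of the otic list ranged from -0.30 to 0.04 in the mutants and from -0.07 to 0.04 in the controls. It was highest in mutant 5, where Otx2, a gene of this list that is also a brain factor, read highest too (8.33). Dlx5, a factor of the dorsal otic vesicle, had -0.44 (interval -0.85 to -0.04, limma adjusted p 0.589), and Oc90, an otoconial matrix protein, -0.49 (interval -1.18 to 0.19). In the mesenchyme list the collagen genes Col1a2 and Col1a1 had the smallest p, each with a difference of -0.16. The mesenchyme mean ranged from -0.28, in mutant 5, to 0.05 in the mutants and from -0.15, in control 3, to 0.06 in the controls. These are the embryos in which the neurogenic factors were highest in their group. The part of tissue share in the differences was not tested.

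Among 16169 other genes above background, those whose deviations ran closest to the mean of the 8 genes over the 10 arrays were Nrsn1 (r = 0.962), Coro1c (0.940), Elavl4 (0.939), Lancl3 (0.933), Nefl (0.930), Spock2 (0.929), Prtn3 (0.927), Syp (0.926), Chst8 (0.922) and Pdhx (0.921). Nrsn1 encodes a neuronal vesicle membrane protein, Nefl a neurofilament and Syp a synaptic vesicle protein. The other genes of the 10 were not sorted by cell type, and no common theme was tested. For Neurod1 alone the closest were Nefm (0.974), Ppp1r14a (0.941), Chst8 (0.938), Mindy3 (0.938) and Nefl (0.936), followed by Sncg (0.933), Gata1 (0.929), Mmel1 (0.926), Rph3al (0.920) and Coprs (0.916). Without mutant 5, 3 of the first 10 and 5 of the second stayed among the 10 closest. The labels do not say which arrays shared a dissection or a hybridisation. With so many genes compared over 10 arrays such values are a description only.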

How the data were processed

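The deposited values are log2 signals that the authors made with RMA; the submitters' processing notes name Affymetrix Expression Console 1.1. The log2 scale was read from the values. RMA corrects background, equalises the arrays and summarises probes. Array medians lay between 6.19 and 6.27, and an array has no read depth, so the number of arrays limits the precision. Per the labels, 300 ng of RNA was used per embryo. Of 35557 probe sets, 21789 had 1 gene symbol and were tested, and the probe set of highest mean stood for each of 19938 genes. Symbols were updated by gene ID (21698 matched, GRCm38.p6).

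The limma package (3.58.1, R 4.3.3; lmFit, eBayes with trend, two-sided) tested mutants against controls, and p-values were adjusted by Benjamini-Hochberg over those 21789 with a threshold of 0.05. Exact permutation of the group labels over 10 arrays (two-sided, smallest p 0.00794) was run for single genes. The script was tested on simulated data of 21789 probe sets. Named were the 8 genes, Tbx1, the 2 genes of smallest p in each list, the 10 genes closest to the mean and to Neurod1, and, after their values were seen, the genes given for mutant 5, En2 and the immediate early Fos. The genes and lists were chosen with earlier results of these data known.

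Mutants and controls of equal replicate number deviated together (r = 0.11 to 0.236, all above 0.1, against -0.382 to 0.385 for unequal numbers; 3 of 5 mutants correlated best with their own number). Every pair exceeded 0.1, though these values lie inside the range of the others. Pairing by number therefore entered the tests only as an alternative, in the replicate block and in the permutation of whole pairs. The main fit is unpaired. Xist and Y-linked genes gave the sex (4 female and 1 male mutant, 3 female and 2 male controls). Alternatives were other variance priors and scalings, a filter on dim probe sets, all probe sets, array weights, the replicate block, array sets, sex, the hindbrain list in the fit and leaving out each array. The neuron list in the fit, the interaction test and the restricted permutations of co-variation were added after the data were seen. Promoter sequences are from RefSeq.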

Additional observations from a re-analysis of the deposited data

Results flagged for a closer look

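Of 42 groups of 5 values, for the 8 genes, Tbx1 and the list means, 7 held an embryo far from the others by Dixon's criterion, where chance gives about 2.1. Among the 8 genes these were Neurod1 in mutant 4, which was low at 7.13, and Nhlh2 in mutant 5, which was high at 7.79. In mutant 5 the list means, set to the control mean, also stood apart for specification and Notch (0.47), other neuronal factors (0.69), family relatives (0.48) and hindbrain and neural tube (0.83). In control 3 the mean of the periotic mesenchyme list stood apart at -0.15. These lists share embryos, so the flags are not independent, and the cause was not tested.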

How the results depend on the processing

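Of 277 values under alternatives, 265 kept their direction and side of the threshold. No member passed under any of the 24 alternatives. The number of genes called was 2, and 1 with the filter on dim probe sets, 3 with the hindbrain list in the fit, 1 in the arrays numbered 1 to 3 and 0 (limma) in those numbered 4 and 5, which have fewer arrays. The difference turned to -0.016 for Neurog1 and -0.091 for Insm1 with the neuron products in the fit, and to -0.086 for Isl1 in the arrays numbered 4 and 5; the cause was not tested. Pairs of members that varied together numbered 1 to 17 as each array was left out, against 15 with all, 19 without removing group means, 5 with replicate numbers permuted as pairs and 0 when permuted within group and array set (9 at an unadjusted p under 0.05). In the limma fit the replicate block changed no call of a member: its lowest limma adjusted p was 0.317, for Neurod4 (difference 0.74). Each member has 1 probe set, so the mean over several could not be run.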
